A study of Danio rerio with 15 samples.

Results

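The comparison set 2 RNA-seq libraries of sf3b1 mutant zebrafish embryos with wildtype Stat3 against 4 libraries of non-mutant embryos with the same construct, namely 2 from wildtype embryos and 2 from siblings of the mutants. These 6 libraries were chosen by the genotype and construct in their titles, out of 15 in the series. All embryos were taken at 28 hours post fertilization. All of them, the wildtype ones included, overexpressed Stat3, so no group here was without a Stat3 construct. Stat3 protein levels are not part of these data. The cells were kdrl-positive cells sorted from whole embryos and described as endothelial, and poly(A) RNA was read from them with a low-input library kit. The labels do not give the sf3b1 allele, the sf3b1 genotype of the siblings, the promoter that drove Stat3 or the number of embryos per library. Nothing in them ties a replicate to its own clutch or sort, so a p-value here reflects only how far these libraries scatter, which can be technical. The other 9 libraries carried a constitutively active Stat3 (CA-Stat3) in the same 3 genotypes. They served to estimate the spread between replicates and to ask whether the mutant change differed with the construct.

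Sf3b1 is the largest subunit of SF3b, the part of the U2 small nuclear ribonucleoprotein (snRNP) that binds the branch point of introns. After U2 binding, the U4/U6.U5 tri-snRNP joins, U4 leaves, and the catalytic spliceosome forms with the Prp19 complex (NTC). Each snRNP holds a small nuclear RNA (snRNA) and a ring of Sm or LSm proteins, and most snRNAs are made by RNA polymerase II or III from promoters bound by the factor SNAPc. Stat3 is a transcription factor activated by cytokine receptors through JAK kinases, and one of its targets, SOCS3, feeds back on those kinases.

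Mutant replicate 2 stood apart from the other libraries. It had 3625121 counts and 18512 detected genes, while mutant replicate 1 had 4537227 counts and 21839 genes, and the 4 non-mutant libraries had 5303361 to 8170371 counts and 21958 to 22597 genes. A single row, zgc:158463, took 39.5% of its counts and 23.4% of those of replicate 1, against 16.3% to 22.3% in the non-mutants. The Spearman correlation of log2 CPM (counts per 1000000) across genes was 0.918 between the mutants and 0.942 to 0.96 among the non-mutant pairs, where the genes are not independent replicates. Mutant replicate 2 correlated with the non-mutants at 0.857 to 0.88 and replicate 1 at 0.906 to 0.917. For that reason nearly all gene list counts below are also given with mutant replicate 2 left out. These values are the library's depth and makeup. Refits with all libraries thinned to equal depth, and without the 3 most abundant rows, are given below. Beyond those refits, the part of depth and makeup in the results was not tested.

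SF3B1, the mutated gene, was lower in both libraries labelled mutant. It had 93.3 and 105 CPM in the mutants, against 185 and 170 CPM in the wildtype and 167 and 157 CPM in the sibling libraries. The mutants averaged 99.3 ± 8.46 CPM (SD, n = 2) and the non-mutants 170 ± 11.7 CPM (SD, n = 4), with no overlap (log2 fold change -0.77 ± 0.16, adjusted p = 0.00431, edgeR quasi-likelihood test with Benjamini-Hochberg adjustment over 18020 genes). The log2 fold change was -0.86 without mutant replicate 2 and -0.69 without replicate 1, and was called in both. A log2 fold change is mutant over non-mutant throughout and the value after ± is its standard error. CPM is scaled to each library's TMM-adjusted total, so changes are shares of the RNA and not amounts per cell. In bulk samples, fewer cells of a type and less RNA per cell cannot be told apart. STAT3 had 244 and 380 CPM in the mutants, against 262 and 230 CPM in the wildtype and 468 and 262 CPM in the sibling libraries. The STAT3 groups overlapped, 1 sibling library being the highest, and whether transcripts of the construct are counted in that row is not given in the sources used here (0.05 ± 0.32, adjusted p = 0.928). Its log2 fold change was -0.30 without mutant replicate 2 and 0.34 without replicate 1, with no call in either. kdrl, the gene of the sort, had 793 and 864 CPM in the mutants, against 821 and 690 CPM in the wildtype and 736 and 559 CPM in the sibling libraries, and its groups overlapped too (0.25 ± 0.25, adjusted p = 0.543).

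Of 18020 genes tested, 2840 (15.8%) passed an adjusted p of 0.05. Of these, 1516 (8.41% of all tested genes) were higher and 1324 (7.35%) were lower in the mutants. The change was over 2-fold for 1005 of the higher and 911 of the lower genes, while the median log2 fold change over all tested genes was -0.04. Mutant replicate 2 carried much of this count. Without it, 811 genes (4.5%) were called, 575 higher (3.19%) and 236 lower (1.31%), and without replicate 1 the count was 3103 (17.2%), 1483 higher (8.23%) and 1620 lower (8.99%). Leaving out a non-mutant library gave 2191 calls (12.2%) without sibling replicate 1, 2064 (11.5%) without sibling replicate 2, and 2112 and 2110 (11.7% each) without wildtype replicates 1 and 2. limma with sample quality weights, which lets a deviating library count less, called 1170 genes (6.49%), 830 higher and 340 lower. The 6 libraries fitted alone gave 1835 calls (10.2%) as mutant and non-mutant and 1551 (8.61%) as 3 genotypes. There were 3280 calls (18.2%) with DESeq2, 3267 (11.7% of 27820 genes) with no filter on low counts and 2642 (16.7% of 15855 genes) with all libraries thinned to the depth of the shallowest. Without the 3 most abundant rows the count was 2857. A total of 571 genes (3.17%) were called in the same direction with both mutant libraries and with either of them left out, 410 higher (2.28%) and 161 lower (0.893%). These 571 are named the stable genes below. Both mutant libraries lay outside the range of the 4 non-mutants for 6871 genes (38.1%), above it for 3212 (17.8%) and below it for 3659 (20.3%). Of the 2840 called genes 2780 had no overlap, so for a called gene the lack of overlap adds little to the call.

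Many genes of the core splicing machinery were higher in the mutants. Of 49 tested genes of the tri-snRNP, NTC and catalytic step list, 26 were higher and 0 lower (53.1% called, against 15.8% of all genes), with a median log2 fold change of 0.76 against -0.04 over all genes. limma called 25 of them, all higher. The count was 25 higher and 0 lower without mutant replicate 2, and 24 higher and 3 lower without replicate 1. In 30 of the 49 both mutants lay above all 4 non-mutants (17.8% of all genes did). Stable genes in this list numbered 22, all of them higher. SNRNP200, the helicase that unwinds U4 from U6, had 1350 and 1660 CPM in the mutants, against 200 and 222 CPM in the wildtype and 236 and 259 CPM in the sibling libraries. Neither mutant came near the non-mutant range (log2 fold change 2.72 ± 0.16, adjusted p = 2.55e-08). EFTUD2, the GTPase of the U5 snRNP, had 378 and 489 CPM in the mutants, against 57.2 and 63.1 CPM in the wildtype and 67.7 and 64.7 CPM in the sibling libraries, again without overlap (log2 fold change 2.78 ± 0.17, adjusted p = 3.52e-08). PRPF31 and PRPF3 bind the paired U4 and U6 RNAs. PRPF31 had 259 and 185 CPM in the mutants, against 26.3 and 24.6 CPM in the wildtype and 25.7 and 29.2 CPM in the sibling libraries, more in mutant replicate 1 than in replicate 2 (log2 fold change 3.07 ± 0.18, adjusted p = 2.55e-08). For PRPF3, the libraries had 320 and 242 CPM in the mutants, against 46.2 and 46.7 CPM in the wildtype and 46.8 and 57.6 CPM in the sibling libraries (log2 fold change 2.51 ± 0.19, adjusted p = 3.79e-07). With replicate 2 left out the log2 fold changes of these genes were 2.57 for SNRNP200, 2.58 for EFTUD2, 3.29 for PRPF31 and 2.70 for PRPF3, so each was of similar size with the first mutant library alone.

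The list of U1 and U2 snRNP and branch point factors, which includes the partners of Sf3b1, had 16 genes higher and 1 lower among 43 (39.5% called), with a median of 0.22. The other 26 were not called. The lower one was SF3B1 itself. There were 12 higher and 1 lower without mutant replicate 2, and 13 higher and 5 lower without replicate 1. SF3A2 and SF3A3 are subunits of SF3a, the complex that sits beside SF3b in the U2 snRNP. SF3A2 had 166 and 145 CPM in the mutants, against 42.2 and 44.8 CPM in the wildtype and 41.7 and 43.7 CPM in the sibling libraries (log2 fold change 1.85 ± 0.17, adjusted p = 2.86e-06). SF3A3 had 244 and 162 CPM in the mutants, against 57 and 47.3 CPM in the wildtype and 62 and 61.6 CPM in the sibling libraries (log2 fold change 1.84 ± 0.18, adjusted p = 6.59e-06). The lower mutant library was 3.23 times the highest non-mutant library for SF3A2 and 2.61 times for SF3A3. SF3B4, a subunit of SF3b, had 127 and 155 CPM in the mutants, against 44.2 and 57.8 CPM in the wildtype and 48.2 and 57.4 CPM in the sibling libraries (log2 fold change 1.44 ± 0.20, adjusted p = 0.000186). HTATSF1, which binds Sf3b1 in the free U2 snRNP, had 137 and 84.7 CPM in the mutants, against 29 and 22.7 CPM in the wildtype and 28.3 and 30.6 CPM in the sibling libraries (log2 fold change 2.01 ± 0.19, adjusted p = 6.08e-06). No mutant library overlapped the non-mutants in any of these 4 genes. In the same libraries SF3B1 was lower.

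**Figure D1:**
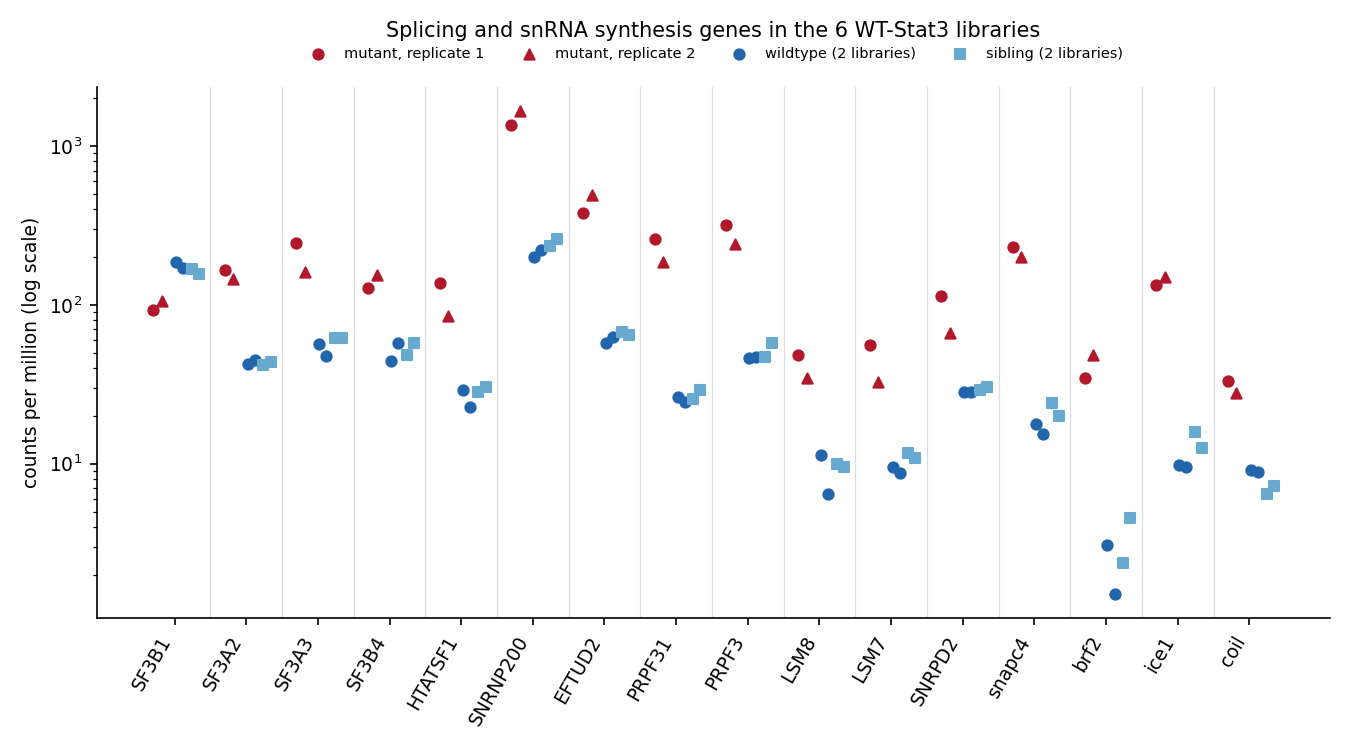
CPM on a log axis of 16 splicing and snRNA synthesis genes in the 6 WT-Stat3 libraries, 1 point per library, mutants to the left of non-mutants in each gene. For SF3B1 both mutants (93.3 and 105 CPM) lie below all non-mutants (157 to 185 CPM). The other 15 were picked from genes called higher, and in them both mutants lie above. Over the whole U1 and U2 list of 43, both mutants lay above in 20 genes and below in 6, SF3B1 included. Among 45 snRNA synthesis genes these numbers were 17 and 4.

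The Sm and LSm ring proteins had 8 genes higher and 0 lower among 17 tested (47.1% called), with a median of 0.84. The same number were called by limma. Of 19 matched, 2 had too few counts to test. The count was 8 higher and 0 lower without mutant replicate 2 and 6 higher and 0 lower without replicate 1. LSM8, the subunit that marks the nuclear LSm ring of U6, had 48.5 and 34.5 CPM in the mutants, against 11.3 and 6.49 CPM in the wildtype and 9.9 and 9.48 CPM in the sibling libraries (log2 fold change 2.16 ± 0.23, adjusted p = 1.97e-05). LSM7, shared by the nuclear and cytoplasmic LSm rings, had 55.9 and 32.8 CPM in the mutants, against 9.53 and 8.76 CPM in the wildtype and 11.6 and 10.9 CPM in the sibling libraries (log2 fold change 2.13 ± 0.26, adjusted p = 8.67e-05). Among Sm proteins, SNRPD2 had 113 and 66.6 CPM in the mutants, against 28.3 and 28.2 CPM in the wildtype and 29.2 and 30.4 CPM in the sibling libraries (log2 fold change 1.63 ± 0.22, adjusted p = 0.000195) and SNRPD3 a log2 fold change of 2.01 ± 0.31. In each of the 4, mutant replicate 1 was higher than replicate 2 and both were above all non-mutants. Of 12 minor spliceosome factors 0 were called, with a median of 0.31, beside 0.22 for the U1 and U2 list. That order depended on the library. With mutant replicate 1 alone the medians were 0.38 and 0.37, and with replicate 2 alone -0.19 and 0.28. The summed level of the minor spliceosome factors was low, at 87.4 and 74.6 CPM in the mutants, against 68.5 to 72.9 CPM in the non-mutants. Missing calls at such levels do not show that these genes were unchanged. 1 was called higher without mutant replicate 1.

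Factors that make and process snRNAs included some of the largest changes. In this list 9 genes were higher and 4 lower among 45 tested (28.9% called), with a median of 0.49. By limma 7 were higher and 1 lower. 5 were higher and 1 lower without mutant replicate 2, and 9 higher and 4 lower without replicate 1. snapc4, which encodes the largest SNAPc subunit, had the smallest adjusted p of the whole comparison (1.20e-08), with 230 and 199 CPM in the mutants, against 17.9 and 15.3 CPM in the wildtype and 24.1 and 19.9 CPM in the sibling libraries (3.49 ± 0.18). brf2, a subunit of the TFIIIB form that starts U6 transcription, had 34.6 and 48.4 CPM in the mutants, against 3.06 and 1.51 CPM in the wildtype and 2.36 and 4.56 CPM in the sibling libraries (log2 fold change 3.88 ± 0.32, adjusted p = 1.08e-06). ice1, a scaffold of the little elongation complex at snRNA genes, had 133 and 150 CPM in the mutants, against 9.76 and 9.51 CPM in the wildtype and 15.8 and 12.6 CPM in the sibling libraries (log2 fold change 3.59 ± 0.21, adjusted p = 2.55e-08). The lower mutant library was 8.27 times the highest non-mutant library for snapc4, 7.61 times for brf2 and 8.41 times for ice1. coil, which encodes coilin of the Cajal bodies where snRNPs mature, had 33.1 and 27.9 CPM in the mutants, against 9.17 and 8.91 CPM in the wildtype and 6.49 and 7.29 CPM in the sibling libraries (log2 fold change 1.95 ± 0.25, adjusted p = 0.00013). All 4 were called without either mutant library.

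Rows for the snRNAs themselves were also higher in the mutants. This grouping by symbol was chosen after the values were seen, so it is a description. The table held 105 rows with the symbol of a spliceosomal snRNA, and 15 had enough counts to test. Of these, 13 were called higher and 0 lower, with a median log2 fold change of 2.1. With mutant replicate 2 left out 9 were higher, with a median of 2.0, and with replicate 1 left out 12 were, with a median of 2.52. limma called 11. Summed over all 105 rows, the level was 717 and 1460 CPM in the mutants, against 310 and 288 CPM in the wildtype and 278 and 287 CPM in the sibling libraries. Mature snRNAs have no poly(A) tail, and copies of their genes can be nearly identical, so single rows are uncertain where reads could be shared between copies.

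Among the single rows, U4 had 54.3 and 188 CPM in the mutants, against 22.3 and 18.4 CPM in the wildtype and 19.3 and 15.9 CPM in the sibling libraries (log2 fold change 2.66 ± 0.36, adjusted p = 0.00016). One U5 row (ENSDARG00000081029) had 26.9 and 47.1 CPM in the mutants, against 3.65 and 1.66 CPM in the wildtype and 2 and 4.19 CPM in the sibling libraries (log2 fold change 3.68 ± 0.39, adjusted p = 1.57e-05). snrnau11 and U12 belong to the minor spliceosome, of whose 12 tested protein genes 0 were called. snrnau11 had 137 and 269 CPM in the mutants, against 30.1 and 30.4 CPM in the wildtype and 32.3 and 39.4 CPM in the sibling libraries (log2 fold change 2.62 ± 0.29, adjusted p = 2.39e-05). U12 had 30.8 and 45.3 CPM in the mutants, against 7.41 and 8 CPM in the wildtype and 5.66 and 9.84 CPM in the sibling libraries (log2 fold change 2.3 ± 0.31, adjusted p = 0.000155). In each of the 4 rows replicate 2 was the highest library and replicate 1 the next. The U2 row had 303 and 678 CPM in the mutants, against 185 and 157 CPM in the wildtype and 158 and 157 CPM in the sibling libraries (log2 fold change 1.58 ± 0.28, adjusted p = 0.00156), and this call was lost without mutant replicate 2 (log2 fold change 0.89, adjusted p = 0.0972).

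Called rows of other small non-coding RNAs were all higher in mutant replicate 2 than in replicate 1. Of 20 tested small nucleolar RNA rows, 7 were higher and 0 lower, with a median of 0.91. The count was 1 without replicate 2, with a median of 0.35, and 14 without replicate 1, and limma called 2. The one row called without replicate 2 was snord118a, the U8 RNA that takes part in rRNA processing, with 16.3 and 35.6 CPM in the mutants, against 2.23 and 2.27 CPM in the wildtype and 3.66 and 2.73 CPM in the sibling libraries (log2 fold change 3.24 ± 0.37, adjusted p = 3.31e-05). RNaseP_nuc, the RNA of RNase P, had 183 and 441 CPM in the mutants, against 111 and 137 CPM in the wildtype and 96.3 and 103 CPM in the sibling libraries, and its call was lost without replicate 2 (adjusted p = 0.157). A row of 5_8S_rRNA had 14500 and 35400 CPM in the mutants, against 7400 and 8930 CPM in the wildtype and 9240 and 11100 CPM in the sibling libraries, and its call was lost as well (adjusted p = 0.16). Of 10 signal recognition particle RNA rows 1 was called higher, and of 10 rows of 5S ribosomal RNA 2 were, with 0 of either called without replicate 2. By limma these counts were 0 and 1. For both kinds the share called is not far from the 15.8% of all genes. The other 5_8S_rRNA row was higher in replicate 1, with 2730 and 1570 CPM in the mutants, against 1300 to 1540 CPM in the non-mutants, and was not called. The snRNA rows thus kept 9 of 13 calls with replicate 1 alone, and the other kinds of small RNA kept 1 of 12. That difference was not tested.

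**Figure D2:**
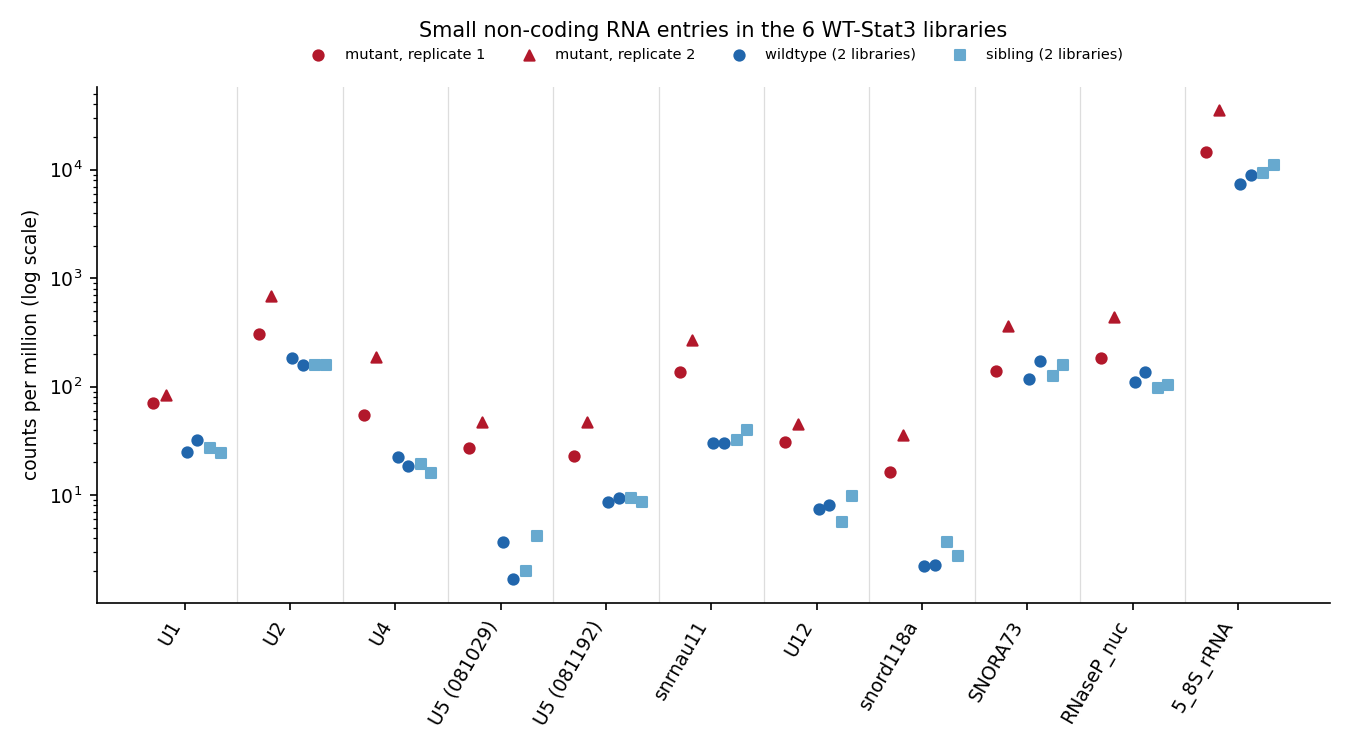
CPM on a log axis of 11 small non-coding RNA rows in the 6 WT-Stat3 libraries, 1 point per library, mutants to the left of non-mutants. For U4, both U5 rows, snrnau11, U12 and snord118a both mutants lie above all non-mutants, with replicate 2 highest, while mutant replicate 1 of SNORA73 (140 CPM) lies within the non-mutant range (117 to 172 CPM).

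Among SR and hnRNP splicing regulators, 14 of 74 were higher and 9 lower (31.1% called), with a median of 0.20, and 8 were higher and 0 lower with mutant replicate 2 left out. By limma 11 were higher and 3 lower, and the 6 libraries alone gave 13 or 14 calls. srrm2, a large SR-related protein of nuclear speckles, had 495 and 399 CPM in the mutants, against 160 and 193 CPM in the wildtype and 182 and 198 CPM in the sibling libraries (log2 fold change 1.29 ± 0.17, adjusted p = 0.000179). srrm1, RBM39 and SRSF11 were also stable genes, with log2 fold changes of 1.04 ± 0.16 for srrm1, 1.17 ± 0.21 for RBM39 and 0.93 ± 0.17 for SRSF11. Of 34 cleavage, polyadenylation and export factors, 3 were higher and 3 lower, with a median of 0.18, and 1 was higher without replicate 2. This is 17.6% called, near the 15.8% of all genes, and 2 were called by limma and 2 in the 6 libraries alone as 3 genotypes. Without sibling replicate 1, wildtype replicate 1 or wildtype replicate 2 the number called was 3, 2 and 3. CSTF3, a subunit of the cleavage stimulation factor, averaged 162 ± 21.8 CPM in the mutants (SD, n = 2) and 72.5 ± 5.94 CPM in the non-mutants (SD, n = 4), did not overlap between them (log2 fold change 1.16 ± 0.16, adjusted p = 0.000264) and was stable. Of 20 exon junction complex and nonsense-mediated decay factors, 3 were higher and 0 lower (15% called, also near that share), with a median of 0.22. DESeq2 and the thinned libraries gave 5 calls. 2 were higher without replicate 2, and 4 higher and 3 lower without replicate 1. EIF4A3, the helicase that anchors the exon junction complex on mRNA, had 204 and 158 CPM in the mutants, against 63.3 and 62.8 CPM in the wildtype and 78.6 and 80.4 CPM in the sibling libraries (log2 fold change 1.35 ± 0.18, adjusted p = 0.000155). SAP18, which binds that complex, changed by 1.05 ± 0.21.

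In the list of heat-shock chaperones, 17 of 55 tested genes were higher and 0 lower (30.9% called), with a median of 0.47. limma called 10, all higher. Without mutant replicate 2, 13 were higher and 0 lower, and without replicate 1, 13 were higher and 1 lower. hsf1, the main heat-shock transcription factor, had 188 and 231 CPM in the mutants, against 33.2 and 33.5 CPM in the wildtype and 37.4 and 36.8 CPM in the sibling libraries (log2 fold change 2.57 ± 0.16, adjusted p = 3.52e-08). The row named HSPA8, a constitutive Hsp70 chaperone with close paralogs, had 55.3 and 50.2 CPM in the mutants, against 3.41 and 3.62 CPM in the wildtype and 13 and 4.19 CPM in the sibling libraries (log2 fold change 3.24 ± 0.32, adjusted p = 8.04e-06). Sibling replicate 1 was the highest non-mutant library for that gene and was still well below both mutants. HSPH1, an Hsp110 exchange factor, had 237 and 228 CPM in the mutants, against 62.2 and 51.5 CPM in the wildtype and 81.4 and 51.4 CPM in the sibling libraries (log2 fold change 1.92 ± 0.25, adjusted p = 0.000146). HSPA9, the mitochondrial Hsp70, changed by 1.32 ± 0.19. HSP90AB1, an abundant cytosolic Hsp90, had 3780 and 3470 CPM in the mutants, against 3780 and 3980 CPM in the wildtype and 3700 and 4260 CPM in the sibling libraries, and its groups overlapped (-0.12 ± 0.15, adjusted p = 0.636).

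The amino acid stress and unfolded protein response list had 5 genes higher, 18 lower and 47 not called among 70. This is 32.9% called, against 15.8% of all genes, with a median of -0.22. By limma 2 were higher and 13 lower. With mutant replicate 2 left out, 2 were higher and 2 lower. PHGDH, the first enzyme of serine synthesis, had 9.06 and 5.58 CPM in the mutants, against 41 and 38.1 CPM in the wildtype and 51.1 and 37.9 CPM in the sibling libraries (log2 fold change -2.49 ± 0.42, adjusted p = 0.00108). CHAC1, which degrades glutathione, had 46.9 and 47.4 CPM in the mutants, against 150 and 114 CPM in the wildtype and 135 and 108 CPM in the sibling libraries (log2 fold change -1.43 ± 0.25, adjusted p = 0.0013). sesn3, a sestrin, was higher, with 171 and 139 CPM in the mutants, against 57.4 and 50.6 CPM in the wildtype and 34.7 and 37.7 CPM in the sibling libraries (log2 fold change 1.81 ± 0.25, adjusted p = 0.000237). CREBZF, a bZIP factor, changed by 0.99 ± 0.18. All 4 of these were stable.

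Genes of the Stat3 pathway were mostly lower among those called, although all groups overexpressed the same construct. Of 65 tested, 3 were higher and 14 lower (26.2% called, against 15.8% of all genes). The excess over that share depended on mutant replicate 2. The median was -0.32, beside -0.04 over all genes, and -0.30 with mutant replicate 2 left out. By limma 1 was higher and 5 lower. Without mutant replicate 2, 1 was higher and 2 lower, and without wildtype replicate 1, 3 were higher and 8 lower. SOCS3, the feedback inhibitor of JAK kinases, had 67.3 and 56.5 CPM in the mutants, against 253 and 240 CPM in the wildtype and 135 and 189 CPM in the sibling libraries (log2 fold change -1.69 ± 0.24, adjusted p = 0.000249). Both mutants were below every non-mutant, the sibling libraries being lower than the wildtype ones. nfil3-5, a bZIP factor, had 9.51 and 6.62 CPM in the mutants, against 27.9 and 20.4 CPM in the wildtype and 35.7 and 28.8 CPM in the sibling libraries (log2 fold change -1.77 ± 0.28, adjusted p = 0.000745). TYK2, a JAK family kinase, went up, with 35.6 and 33.5 CPM in the mutants, against 8.58 and 9.82 CPM in the wildtype and 10.3 and 6.74 CPM in the sibling libraries (log2 fold change 1.96 ± 0.31, adjusted p = 0.000745). These 3 are the stable genes of the list. The list shares SOCS3 and other genes with the immediate-early list, and MMP9 with the neutrophil markers, so the counts of these lists are not independent. The kinase jak2a had 69.1 and 130 CPM in the mutants, against 41.9 and 51.5 CPM in the wildtype and 59.7 and 53.6 CPM in the sibling libraries, a call that was lost with limma and without mutant replicate 2 (log2 fold change 0.43, adjusted p = 0.382). il6st, the shared receptor of the interleukin 6 family, had 223 and 277 CPM in the mutants, against 314 and 206 CPM in the wildtype and 338 and 270 CPM in the sibling libraries, with overlapping groups (-0.17 ± 0.25, adjusted p = 0.685).

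Immediate-early genes were lower or not called. Of 67 tested, 0 were higher and 22 lower (32.8% called), with a median of -0.55, and limma called 7. With mutant replicate 2 left out 3 were lower, without replicate 1 there were 3 higher and 19 lower, and without sibling replicate 2 there were 13 lower. ZFP36L1, which drives decay of AU-rich mRNAs, had 63 and 72.5 CPM in the mutants, against 483 and 245 CPM in the wildtype and 364 and 244 CPM in the sibling libraries (log2 fold change -2.30 ± 0.33, adjusted p = 0.000304). ZFP36L1 and SOCS3, which is also on this list, were stable. egr1 had 203 and 209 CPM in the mutants, against 483 and 496 CPM in the wildtype and 218 and 288 CPM in the sibling libraries. The egr1 mutants lay below the non-mutants only narrowly, and the wildtype libraries were above the sibling ones (-0.77 ± 0.45, adjusted p = 0.262).

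Few pan-endothelial genes were called. Of 42 tested pan-endothelial genes 1 was higher and 2 were lower (7.14% called, against 15.8% of all genes), with a median of -0.05. Without mutant replicate 2, 0 were higher and 1 lower. DESeq2 and the fit with no filter each gave 6 calls. Summed over the list, the level was 8260 and 8210 CPM in the mutants, against 10700 and 9170 CPM in the wildtype and 8610 and 7390 CPM in the sibling libraries, and the groups overlapped. cdh5, the vascular cadherin, had 913 and 697 CPM in the mutants, against 1280 and 984 CPM in the wildtype and 1010 and 840 CPM in the sibling libraries (-0.34 ± 0.23, adjusted p = 0.342). The transcription factor FLI1 had 538 and 529 CPM in the mutants, against 515 and 454 CPM in the wildtype and 418 and 374 CPM in the sibling libraries (0.29 ± 0.20, adjusted p = 0.356). Both FLI1 mutants were above the non-mutants but by little. For the receptor TIE1 the values were 426 and 491 CPM in the mutants, against 461 and 393 CPM in the wildtype and 395 and 326 CPM in the sibling libraries (0.22 ± 0.24, adjusted p = 0.57). The exception among stable genes was MRC1, a mannose receptor of venous and lymphatic endothelium and of macrophages, with 287 and 183 CPM in the mutants, against 1100 and 956 CPM in the wildtype and 660 and 722 CPM in the sibling libraries (log2 fold change -1.84 ± 0.26, adjusted p = 0.000246).

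Of 25 venous and lymphatic genes, 2 were higher and 5 lower (28% called, against 15.8% of all genes), with a median of -0.34. limma called 3, and the 6 libraries alone as mutant and non-mutant gave 4. The count was 0 higher and 1 lower without mutant replicate 2, 1 higher and 2 lower without sibling replicate 1, and 1 higher and 3 lower without wildtype replicate 2. The one left without replicate 2 was MRC1. stab1, a scavenger receptor, had 444 and 555 CPM in the mutants, against 944 and 873 CPM in the wildtype and 671 and 725 CPM in the sibling libraries (log2 fold change -0.67 ± 0.22, adjusted p = 0.0483), a call lost with any of the 6 libraries left out, with limma and in the 6 libraries alone. DAB2, a clathrin adaptor, was higher, with 282 and 446 CPM in the mutants, against 169 and 144 CPM in the wildtype and 193 and 123 CPM in the sibling libraries (log2 fold change 1.21 ± 0.22, adjusted p = 0.00188), and was not called without mutant replicate 2 (log2 fold change 0.84, adjusted p = 0.0714). FLT4 and ephb4a, receptors of venous endothelium, were not called, at -0.20 ± 0.23 for FLT4 and 0.15 ± 0.30 for ephb4a. Of 46 arterial and Notch genes, 6 were higher and 2 lower, with a median of 0.01. This is 17.4% called, near the 15.8% of all genes. limma called 4, the 6 libraries alone as mutant and non-mutant gave 5, and 1 was higher without replicate 2. That one was jag2a, a Notch ligand, with 23.6 and 26.1 CPM in the mutants, against 10.2 and 15.3 CPM in the wildtype and 8.14 and 6.38 CPM in the sibling libraries (log2 fold change 1.36 ± 0.28, adjusted p = 0.00431). dll4, the main arterial Notch ligand, had 99.2 and 89.6 CPM in the mutants, against 276 and 179 CPM in the wildtype and 113 and 131 CPM in the sibling libraries, and the wildtype libraries exceeded the sibling ones (-0.82 ± 0.31, adjusted p = 0.0827). HEY2, a Notch target, had 66.8 and 89.2 CPM in the mutants, against 37.4 and 22.2 CPM in the wildtype and 37.1 and 21.7 CPM in the sibling libraries (log2 fold change 1.39 ± 0.38, adjusted p = 0.023), a call lost with limma and without mutant replicate 2, sibling replicate 2 or wildtype replicate 2.

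The haemogenic endothelium and blood stem cell list had 8 genes higher and 3 lower among 42 (26.2% called, against 15.8% of all genes), with a median of 0.15. limma called 5, and the 6 libraries alone as 3 genotypes gave 7. 2 were higher and 0 lower without mutant replicate 2, and 5 higher and 1 or 2 lower without sibling replicate 2, wildtype replicate 1 or wildtype replicate 2. GFI1B, a transcriptional repressor in erythroid and megakaryocyte precursors, had 69.1 and 125 CPM in the mutants, against 6.35 and 9.36 CPM in the wildtype and 20.2 and 16 CPM in the sibling libraries (log2 fold change 3.02 ± 0.35, adjusted p = 4.77e-05). drl, a zinc finger gene of the early blood and vessel lineage, had 28.5 and 25.4 CPM in the mutants, against 2.82 and 5.89 CPM in the wildtype and 10.6 and 8.75 CPM in the sibling libraries (log2 fold change 2.06 ± 0.45, adjusted p = 0.00618). Both were above all non-mutants in both mutant libraries and were stable. Both are also on the list of red blood cell markers. Against the sibling libraries alone drl changed by 1.47 ± 0.53 and was not called (edgeR, adjusted p = 0.0997). RUNX1, which starts haemogenic commitment, had 2.94 and 5.58 CPM in the mutants, against 4.12 and 3.93 CPM in the wildtype and 2.95 and 3.46 CPM in the sibling libraries (0.21 ± 0.57, adjusted p = 0.832). gata2b had under 3 CPM in every library, and its change was not detectable at this depth (0.07 ± 0.91, adjusted p = 0.968).

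Among 78 VEGF and angiogenic signalling genes, 3 were higher and 2 lower, with a median of -0.15. This is 6.41% called, against 15.8% of all genes. limma and the 6 libraries alone as 3 genotypes gave 1 call, and DESeq2 gave 8. 1 was higher and 2 were lower without mutant replicate 2, 1 higher and 2 lower without sibling replicate 2, and 1 of each without wildtype replicate 2. The receptors KDR and flt1 were not called, at -0.11 ± 0.24 for KDR and 0.38 ± 0.33 for flt1. RRAS2, a small GTPase, changed by 0.74 ± 0.17 and was stable. Of 57 BMP and TGF-beta genes, 6 were higher and 7 lower (22.8% called), with a median of 0.04, and 2 of each without replicate 2. limma called 6, and the 6 libraries alone as 3 genotypes gave 8. FST, which encodes follistatin, the activin antagonist, had 50 and 65.2 CPM in the mutants, against 8.47 and 5.59 CPM in the wildtype and 12.3 and 13.5 CPM in the sibling libraries (log2 fold change 2.59 ± 0.39, adjusted p = 0.000494). SMAD4, the common partner of the receptor-activated Smads, had 22.4 and 29.6 CPM in the mutants, against 9.88 and 6.04 CPM in the wildtype and 10 and 7.47 CPM in the sibling libraries (log2 fold change 1.62 ± 0.25, adjusted p = 0.000573). Both were above all non-mutants in both mutants.

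Extracellular matrix and adhesion genes had 7 higher and 17 lower among 80 (30% called), with a median of -0.22. By limma 6 were higher and 5 lower. Without mutant replicate 2 there were 5 higher and 4 lower, and without replicate 1, 5 higher and 10 lower. COL1A1, the fibrillar collagen chain, had 79.7 and 119 CPM in the mutants, against 483 and 457 CPM in the wildtype and 227 and 478 CPM in the sibling libraries (log2 fold change -2.04 ± 0.38, adjusted p = 0.00241). Sibling replicate 1 was the lowest non-mutant and still above both mutants. COL5A2, another fibrillar collagen chain, had 19 and 21.3 CPM in the mutants, against 144 and 92.4 CPM in the wildtype and 57.5 and 91.3 CPM in the sibling libraries (log2 fold change -2.22 ± 0.34, adjusted p = 0.000503). LAMB1, a laminin chain of basement membranes, had 52.3 and 48.8 CPM in the mutants, against 151 and 135 CPM in the wildtype and 109 and 108 CPM in the sibling libraries (log2 fold change -1.30 ± 0.22, adjusted p = 0.00107). P4HA2, a collagen prolyl hydroxylase, went the other way, at 1.16 ± 0.22. The list of mesenchyme, notochord and cartilage markers had 1 gene higher and 15 lower among 69 (1 higher and 3 lower without replicate 2, 1 higher and 9 lower without sibling replicate 2) and a median of -0.49. It had 23.2% called, against 15.8% of all genes, with 6 calls by limma and 26 with no filter. Its summed level was 2450 and 2350 CPM in the mutants, against 4550 and 4210 CPM in the wildtype and 2980 and 4790 CPM in the sibling libraries, with both mutants below all non-mutants. Both lists hold collagen genes, COL1A1 and COL5A2 among them, so this lower sum is not separate from the collagen values above. The part of such cells in the collagen result was not tested.

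Cytosolic ribosomal protein genes had the largest share of calls among the 36 lists. Of 78 tested, 51 were lower and 0 higher (65.4%, against 15.8% of all genes), with a median of -0.63. In 70 of the 78 both mutants were below all 4 non-mutants (20.3% of all genes were). The number called was 6 without mutant replicate 2, with a median of -0.46, and 59 without replicate 1, with a median of -0.86. limma called 31, and the 6 libraries alone gave 32 as mutant and non-mutant and 25 as 3 genotypes. Without wildtype replicate 1 there were 34. The summed level was 19300 and 15000 CPM in the mutants, against 26100 and 25100 CPM in the wildtype and 25800 and 26200 CPM in the sibling libraries, with no overlap and replicate 2 the lowest. RPL12, a protein of the large subunit stalk, had 152 and 123 CPM in the mutants, against 351 and 386 CPM in the wildtype and 359 and 377 CPM in the sibling libraries (log2 fold change -1.42 ± 0.18, adjusted p = 9.33e-05). rps20, of the small subunit, had 108 and 93.8 CPM in the mutants, against 210 and 213 CPM in the wildtype and 194 and 199 CPM in the sibling libraries (log2 fold change -1.01 ± 0.16, adjusted p = 0.000836). Both were stable. With CA-Stat3, 4 of the 78 were lower and 0 higher, the median was -0.00, and the summed level was 22800 to 27400 CPM in the 3 mutants, against 22100 to 28200 CPM in the 6 non-mutants. The construct difference, WT-Stat3 minus CA-Stat3 of the mutant change, had a median of -0.61 over the list and -0.02 over all genes. No member passed the adjusted threshold. At an unadjusted p of 0.05, 57 of the 78 passed, beside 6.89% of all genes, and without mutant replicate 1 the adjusted count was 19, all lower.

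**Figure D3:**
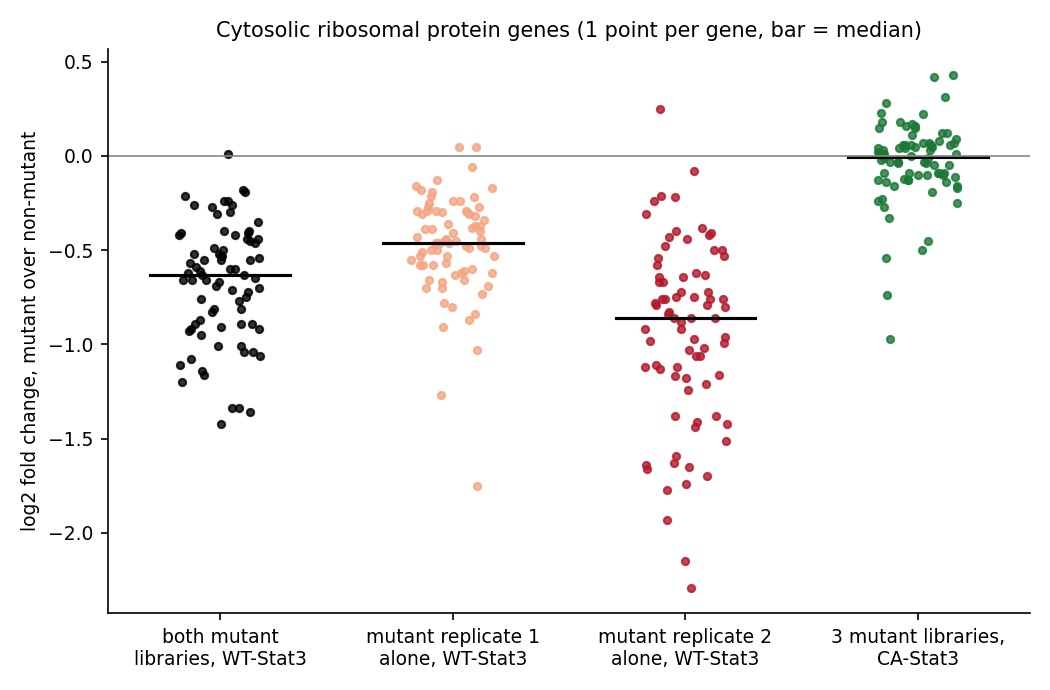
Log2 fold change, mutant over non-mutant, of 78 cytosolic ribosomal protein genes with both WT-Stat3 mutant libraries, with each of them alone, and with the 3 CA-Stat3 mutant libraries, 1 point per gene and a bar at the median. The medians are -0.63, -0.46, -0.86 and -0.00, and the first 3 columns share the same 4 non-mutant libraries.

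In the glycolysis and hypoxia list 1 gene was higher, 11 were lower and 41 were not called among 53, with a median of -0.48, and 0 were higher and 4 lower without mutant replicate 2. With both mutants 22.6% were called, against 15.8% of all genes, and limma called 6, all lower. TPI1, the triose phosphate isomerase, had 10.4 and 10.1 CPM in the mutants, against 43.6 and 67.8 CPM in the wildtype and 57.7 and 59.6 CPM in the sibling libraries (log2 fold change -2.47 ± 0.32, adjusted p = 0.000128). GPI, the second enzyme of the pathway, had 18.3 and 15 CPM in the mutants, against 48.3 and 77.9 CPM in the wildtype and 50.3 and 57.9 CPM in the sibling libraries (log2 fold change -1.80 ± 0.29, adjusted p = 0.000745). ENO3 and PKM, an enolase and a pyruvate kinase, changed by -1.88 ± 0.31 for ENO3 and -2.02 ± 0.33 for PKM. These 4 enzymes are the stable ones, and in each both mutants were below all 4 non-mutants. Among 55 cholesterol and lipid synthesis genes 5 were higher and 6 lower, with a median of 0.10, but 0 were called without replicate 2. The count was 7 without sibling replicate 1, 5 without sibling replicate 2 and 5 without wildtype replicate 2, 1 by limma, 3 in the 6 libraries alone and 7 in the thinned libraries. With all libraries 20% of the cholesterol and lipid synthesis genes were called, against 15.8% of all genes. Among 65 autophagy and lysosome genes 3 were higher and 6 lower (13.8% called), with a median of -0.33. limma called 5, and 1 was lower without replicate 2. That one was HEXA, a lysosomal hexosaminidase, with 3.85 and 3.83 CPM in the mutants, against 13.5 and 14.8 CPM in the wildtype and 14 and 15.7 CPM in the sibling libraries (log2 fold change -1.91 ± 0.32, adjusted p = 0.00109).

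Among 108 cell cycle and replication genes 5 were higher and 10 lower (13.9% called, against 15.8% of all genes), with a median of -0.01, and 2 of each without mutant replicate 2. limma called 7, and the 6 libraries alone as 3 genotypes gave 9. PCNA, the replication clamp, had 205 and 195 CPM in the mutants, against 178 and 160 CPM in the wildtype and 194 and 225 CPM in the sibling libraries (0.09 ± 0.18, adjusted p = 0.772), with overlapping groups. HMGB2, a chromatin protein of dividing cells, had 339 and 144 CPM in the mutants, against 621 and 511 CPM in the wildtype and 598 and 664 CPM in the sibling libraries (log2 fold change -1.30 ± 0.26, adjusted p = 0.00364). CCNE1, the cyclin of S phase entry, had 8.83 and 9.76 CPM in the mutants, against 3.53 and 3.32 CPM in the wildtype and 1.77 and 3.1 CPM in the sibling libraries (log2 fold change 1.69 ± 0.35, adjusted p = 0.00449). With CA-Stat3 it was 3.13 to 4.47 CPM in the mutants, against 2.09 to 4.25 CPM in the non-mutants. The difference between constructs for CCNE1 was 1.45 ± 0.46 and was not called (edgeR, adjusted p = 0.662). Among 128 DNA and chromatin regulators 5 were higher and 10 lower (11.7% called), with a median of 0.00. limma called 6, and the 6 libraries alone gave 9 as mutant and non-mutant and 7 as 3 genotypes. 2 were higher and 1 lower without replicate 2, 2 higher and 7 lower without sibling replicate 2, and 2 higher and 6 lower without wildtype replicate 1. BRD2, a bromodomain reader, had 126 and 112 CPM in the mutants, against 299 and 298 CPM in the wildtype and 232 and 268 CPM in the sibling libraries (log2 fold change -1.20 ± 0.17, adjusted p = 0.000212).

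Called markers of white blood cells were all lower in the mutants. Of 24 tested neutrophil markers 9 were lower and 0 higher (37.5% called, against 15.8% of all genes). Their median was -1.41, or -1.31 with members at 0 set to a floor of 3 counts over the pooled group. Without mutant replicate 2, 4 were lower, and without replicate 1, 12, while limma called 7 and the fit with no filter 15. Their summed level was 748 and 321 CPM in the mutants, against 1600 and 2690 CPM in the wildtype and 1740 and 1670 CPM in the sibling libraries. lyz, a lysozyme, had 41.7 and 6.27 CPM in the mutants, against 303 and 465 CPM in the wildtype and 300 and 265 CPM in the sibling libraries (log2 fold change -3.73 ± 0.58, adjusted p = 0.000623). npsn, the granule protease nephrosin, had 31.9 and 3.83 CPM in the mutants, against 275 and 514 CPM in the wildtype and 260 and 284 CPM in the sibling libraries (log2 fold change -4.13 ± 0.64, adjusted p = 0.000608). Replicate 2 was the lowest library for both, and replicate 1 was also below all non-mutants. srgn, a granule proteoglycan, had 75.6 and 32.4 CPM in the mutants, against 235 and 346 CPM in the wildtype and 209 and 221 CPM in the sibling libraries (log2 fold change -2.20 ± 0.34, adjusted p = 0.000657). Of 26 tested macrophage markers 15 were lower and 0 higher (57.7% called), with a median of -1.88 (-1.78 at the floor). This count was 0 without replicate 2, 14 without replicate 1, 10 without wildtype replicate 2 and 2 by limma. The summed level was 325 and 127 CPM in the mutants, against 564 and 1190 CPM in the wildtype and 555 and 690 CPM in the sibling libraries. csf1rb, a receptor for colony stimulating factor, had 4.76 and 3.83 CPM in the mutants, against 16 and 29.6 CPM in the wildtype and 18 and 18.6 CPM in the sibling libraries, which was not called by limma or without replicate 2 (adjusted p = 0.068). Of the 33 matched macrophage markers, 9 had no count in either mutant, 2 of which had none in the non-mutants either.

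Of 39 tested red blood cell markers, 16 were higher, 1 was lower and 22 were not called. That is 43.6% called, against 15.8% of all genes, with a median of 0.94. The count was 4 higher and 0 lower without replicate 2 and 20 higher and 0 lower without replicate 1. The summed level was 2830 and 4580 CPM in the mutants, against 1340 and 1670 CPM in the wildtype and 2960 and 2780 CPM in the sibling libraries, so that replicate 1 lay within the sibling range and the wildtype libraries were lowest. gata1a, the erythroid master regulator, had 29.9 and 35 CPM in the mutants, against 5.17 and 5.44 CPM in the wildtype and 10.5 and 12.4 CPM in the sibling libraries (log2 fold change 2.06 ± 0.37, adjusted p = 0.00186). CPOX, an enzyme of haem synthesis, had 156 and 271 CPM in the mutants, against 19.8 and 33.5 CPM in the wildtype and 49.3 and 48.1 CPM in the sibling libraries (log2 fold change 2.57 ± 0.34, adjusted p = 0.000142). Both were stable. GFI1B and drl, given above with the haemogenic list, are members of this list too. alas2, the first enzyme of that pathway in red cells, had 106 and 284 CPM in the mutants, against 36.8 and 55.3 CPM in the wildtype and 108 and 90.4 CPM in the sibling libraries. Its groups overlapped, and its call (adjusted p = 0.0332) was lost without mutant replicate 2, either sibling library or wildtype replicate 1, by limma and by DESeq2. Of 15 thrombocyte markers 2 were higher and 2 lower (26.7% called, against 15.8% of all genes), with a median of 0.02. Of these markers 0 were called without replicate 2. limma called 1. 2 were lower without replicate 1 and 2 without sibling replicate 2. mpl, the thrombopoietin receptor, had 17 and 18.1 CPM in the mutants, against 6.59 and 8.76 CPM in the wildtype and 7.19 and 4.19 CPM in the sibling libraries (log2 fold change 1.40 ± 0.41, adjusted p = 0.0307), a call lost with limma and without either mutant library, sibling replicate 2 or wildtype replicate 1.

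**Figure D4:**
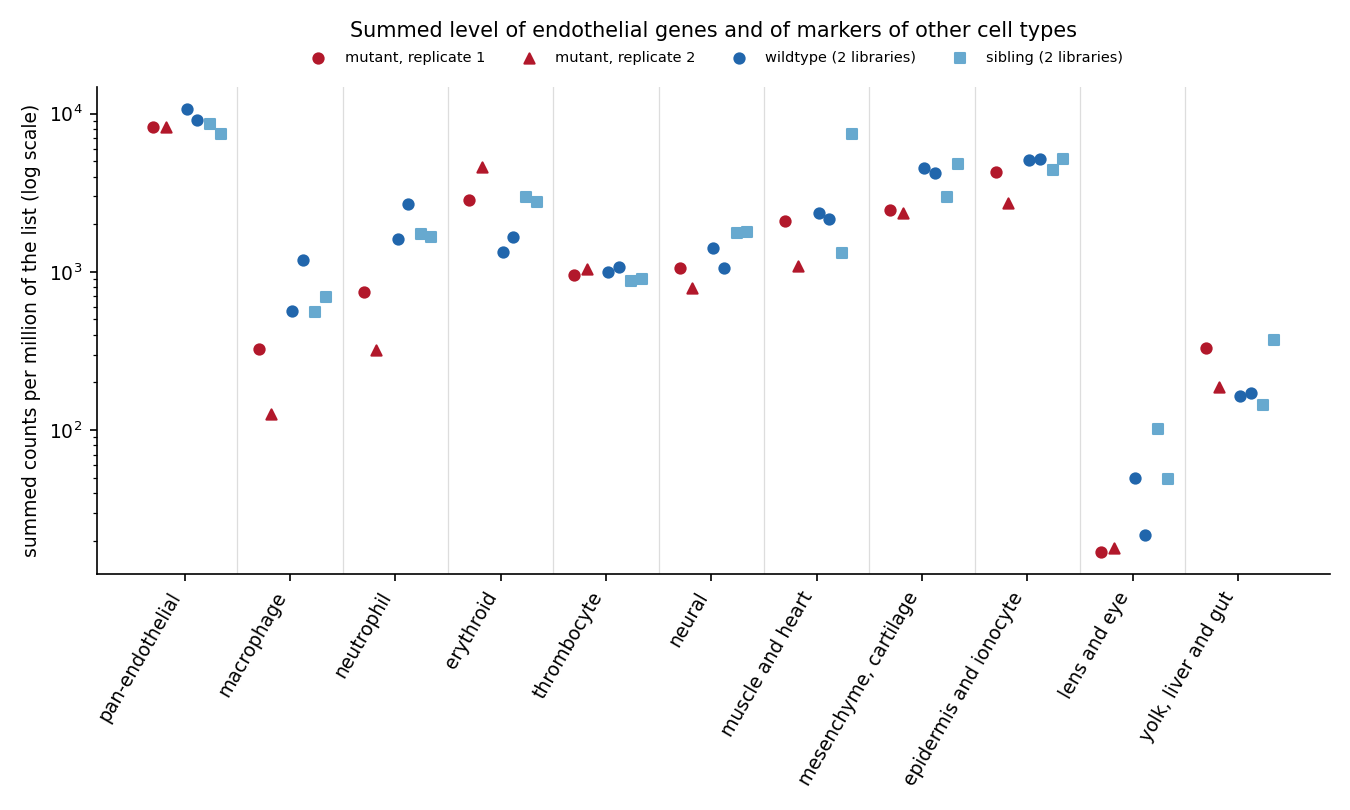
Summed CPM on a log axis of the pan-endothelial list and 10 lists of markers of other cell types, 1 point per WT-Stat3 library, mutants to the left of non-mutants. Macrophage and neutrophil sums of both mutants (127 to 748 CPM) lie below all non-mutants of the same list, with replicate 2 lowest, while the muscle sum of sibling replicate 2 (7460 CPM) is above all other libraries.

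Of 57 neural markers 13 were lower and 0 higher (22.8% called, against 15.8% of all genes). Their median was -0.76 (-0.75 at the floor). limma called 0 of them, 1 was lower without mutant replicate 2 and 7 without wildtype replicate 1. Of 61 muscle and heart markers 2 were higher and 1 lower (4.92% called), with a median of -1.02 (-0.99 at the floor). With no filter on low counts 2 were higher and 24 lower, and DESeq2 called 8 and limma 1. Without sibling replicate 2 the summed non-mutant level was 1320 to 2340 CPM, while the mutants had 2080 and 1090 CPM, and without sibling replicate 1, 2 genes were higher and 14 lower. TNNI1, a troponin of slow muscle, was called higher from low counts, with 5.21 and 2.79 CPM in the mutants, against 0 and 0.151 CPM in the wildtype and 0 and 0.182 CPM in the sibling libraries. Of 58 epidermis and ionocyte markers 3 were higher and 6 lower, with a median of -0.15, and 1 was higher without replicate 2. There were 16 calls without replicate 1, 16 with no filter and 5 by limma. Of 15 lens and eye markers 5 were lower, with a fitted median of -3.71 and a median of -1.95 at the floor, and 1 was lower without replicate 2. The count was 2 without sibling replicate 1, 3 without wildtype replicate 1 and 2 without mutant replicate 1, 0 by limma, 3 in the 6 libraries alone and 8 with no filter. Of 20 pigment cell markers 1 was lower, and of 31 yolk, liver and gut markers 2 were higher and 1 lower. Over all genes 15.8% were called, beside 15.5% of the epidermis and ionocyte and 33.3% of the lens and eye markers. The share was 5% for pigment cell and 9.68% for yolk, liver and gut markers. The pigment cell call was lost without either mutant library, sibling replicate 2 or wildtype replicate 2, and by limma, in the 6 libraries alone and in the thinned libraries. The yolk, liver and gut count fell to 0 without mutant replicate 1 or wildtype replicate 1 and to 1 without mutant replicate 2, without sibling replicate 1 and by limma.

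**Figure D5:**
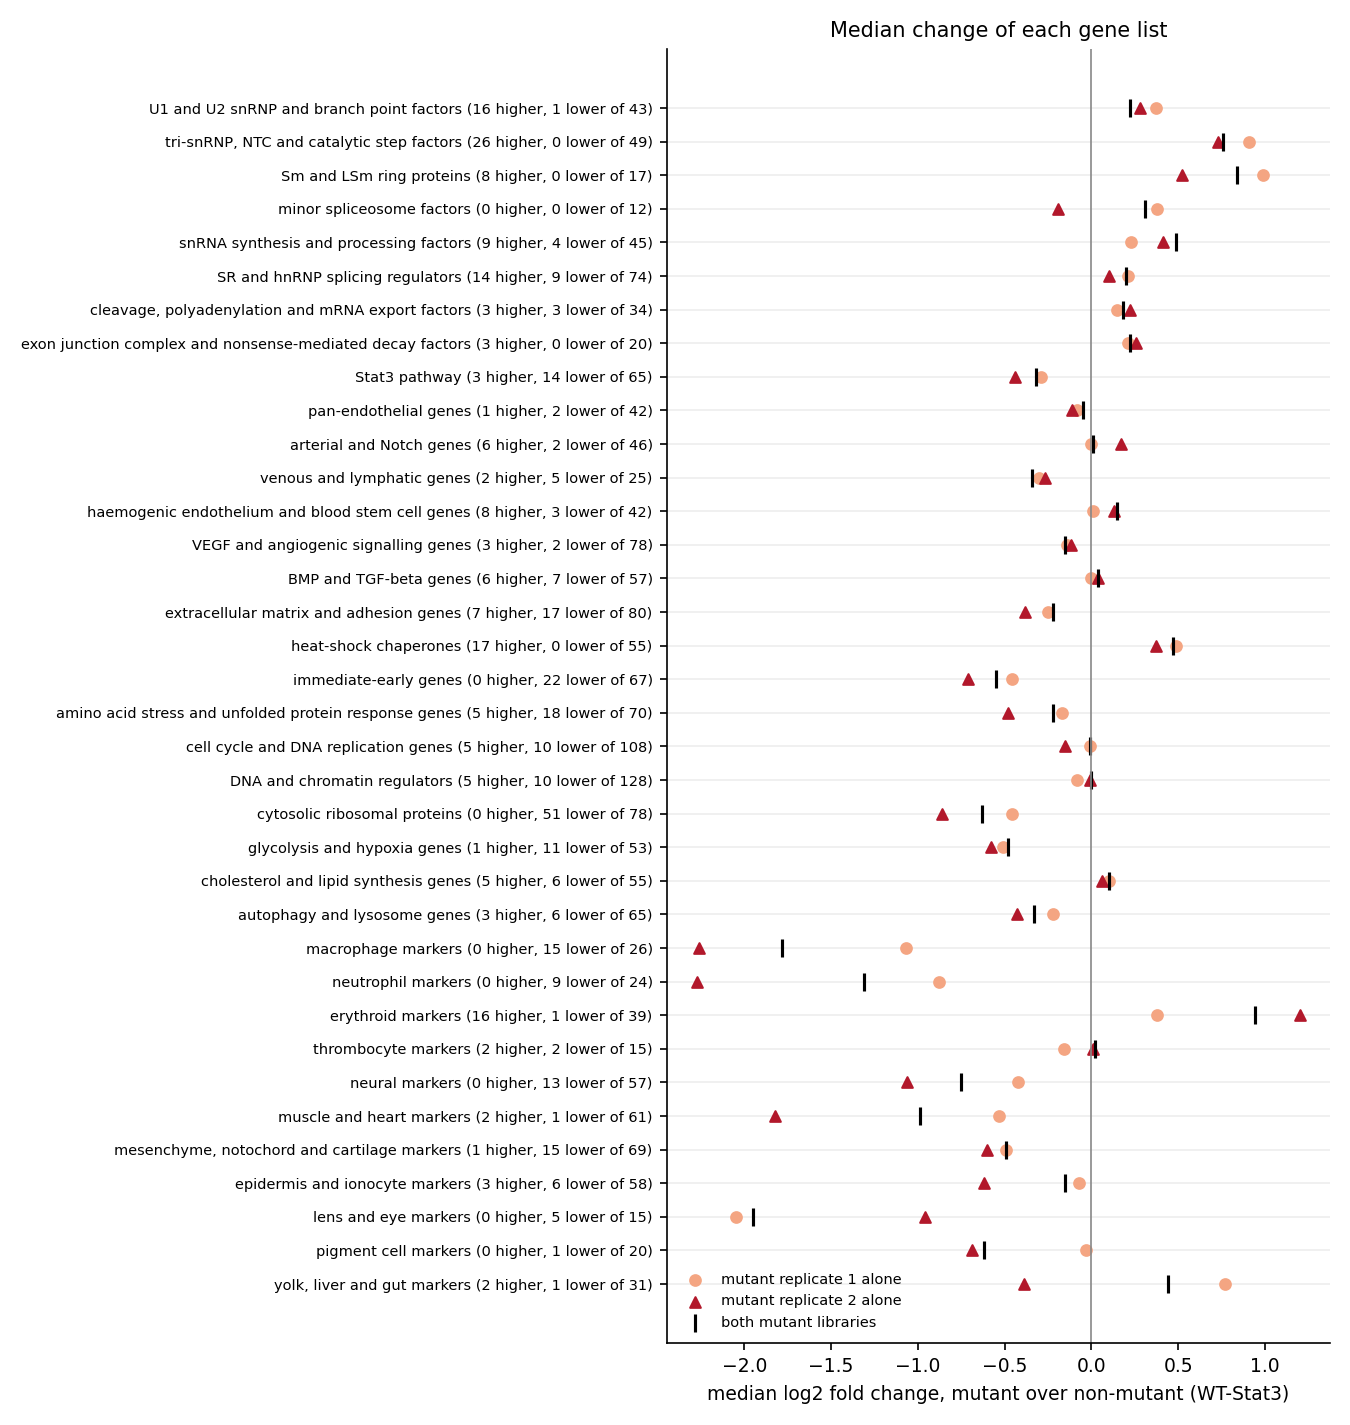
Median log2 fold change, mutant over non-mutant, of 36 gene lists with both WT-Stat3 mutant libraries and with each of them alone, members at 0 in a group being set to a floor of 3 counts. Splicing lists lie right of 0 with either library, except the minor spliceosome list (0.38 with replicate 1 alone and -0.19 with replicate 2 alone), and macrophage and neutrophil lists lie furthest left with replicate 2 alone, at -2.26 and -2.27.

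The 12 stable genes with the largest rise, by a rule stated with the methods, held few members of these lists. LNX1, a ubiquitin ligase, led with 43.5 and 33.1 CPM in the mutants, against 0.353 and 4.23 CPM in the wildtype and 0.943 and 0.911 CPM in the sibling libraries (log2 fold change 4.73 ± 0.48, adjusted p = 1.02e-05). ATXN1, a transcriptional co-repressor, had 82.7 and 53.7 CPM in the mutants, against 1.76 and 5.59 CPM in the wildtype and 3.07 and 5.1 CPM in the sibling libraries (log2 fold change 4.17 ± 0.34, adjusted p = 8.64e-07). PDE6D, a carrier of prenylated proteins, had 21.1 and 18.1 CPM in the mutants, against 1.29 and 1.06 CPM in the wildtype and 1.65 and 0.729 CPM in the sibling libraries (log2 fold change 3.99 ± 0.37, adjusted p = 4.67e-06). In all 3 the non-mutants stayed below 6 CPM and both mutants were above 18 CPM. mat2al, a methionine adenosyltransferase, had 23.6 and 16.7 CPM in the mutants, against 1.29 and 1.66 CPM in the wildtype and 0.707 and 1.82 CPM in the sibling libraries (log2 fold change 3.92 ± 0.49, adjusted p = 9.06e-05). map3k19, a kinase, had 19.7 and 25.1 CPM in the mutants, against 2.12 and 2.11 CPM in the wildtype and 1.65 and 1.09 CPM in the sibling libraries (log2 fold change 3.68 ± 0.41, adjusted p = 3.12e-05). The ubiquitin ligase RNF14 is listed under a pair of identifiers, and whether reads were shared between them is not given in the sources used here. ENSDARG00000104631 had 33.7 and 25.4 CPM in the mutants, against 2.12 and 2.57 CPM in the wildtype and 2 and 1.46 CPM in the sibling libraries, and the other changed by 3.86 ± 0.44. cysltr3, a leukotriene receptor, and RNF224, a RING finger protein, changed by 4.16 ± 0.55 for cysltr3 and 3.69 ± 0.52 for RNF224. The remaining 3 were brf2, U5 and ice1.

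The 12 stable genes with the largest fall include npsn and lyz of the neutrophil list, and the other 10 matched no entry of the 36 lists by symbol. The 141 list entries without a match were not searched under other names, so some of these 10 may be members. EPX, a haem peroxidase, had 73.4 and 15.7 CPM in the mutants, against 580 and 1260 CPM in the wildtype and 535 and 747 CPM in the sibling libraries (log2 fold change -4.08 ± 0.63, adjusted p = 0.000594). itgam.1, an integrin chain of myeloid cells, had 5.43 and 0.349 CPM in the mutants, against 19.8 and 55.9 CPM in the wildtype and 29.4 and 26.4 CPM in the sibling libraries (log2 fold change -3.32 ± 0.61, adjusted p = 0.00204). NCKAP1L, a regulator of actin in blood cells, had 7.25 and 2.09 CPM in the mutants, against 21.1 and 67.2 CPM in the wildtype and 28.1 and 37 CPM in the sibling libraries (log2 fold change -2.92 ± 0.54, adjusted p = 0.00215). For each of these 3 genes both mutants were below all non-mutants, and replicate 2 was the lowest library. CPA1, a carboxypeptidase, changed by -4.14 ± 0.72, cfbl, a complement factor, by -3.72 ± 0.62, gja13.2, a connexin, by -3.54 ± 0.66, serpinb1l3, a protease inhibitor, by -3.25 ± 0.53 and ABCB9, a lysosomal transporter, by -2.69 ± 0.47. CA6 and GPM6A had like levels in the 2 mutants. CA6, a carbonic anhydrase, had 3.4 and 3.14 CPM in the mutants, against 25.3 and 31 CPM in the wildtype and 16 and 23.1 CPM in the sibling libraries (log2 fold change -2.83 ± 0.41, adjusted p = 0.000376). GPM6A, a membrane protein of neurons, had 2.72 and 2.44 CPM in the mutants, against 20.7 and 9.06 CPM in the wildtype and 17.7 and 26.1 CPM in the sibling libraries (log2 fold change -2.79 ± 0.54, adjusted p = 0.00325). The calls of CPA1, gja13.2, itgam.1, serpinb1l3, NCKAP1L and GPM6A were lost with limma.

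Some called genes had no count in either mutant. Against a floor of 3 counts over the mutant libraries, the lens crystallin crybb1l1 was at least 21.8-fold lower, shtn2 at least 14-fold lower and fcer1g, a receptor chain of leukocytes, at least 13.8-fold lower. camk2d2, a kinase, was at least 6.08-fold lower and ccl35.1, a chemokine, at least 5.96-fold lower. crybb1l1 was stable, the other 4 were not called without mutant replicate 2, and limma called none of the 5. camk2d2 and ccl35.1 were not called in the 6 libraries alone either. The calls of shtn2, camk2d2 and ccl35.1 were also lost without mutant replicate 1, those of shtn2 and ccl35.1 without wildtype replicate 2, and that of ccl35.1 without sibling replicate 2. In the other direction muc2.2, a mucin, had 0 counts in the 4 non-mutants and 4.76 and 0.349 CPM in the mutants, at least 24.8-fold higher against the same floor over the non-mutants. That call was lost with DESeq2 and without mutant replicate 1.

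The mutants also differed from each other. Among genes with at least 50 CPM in one of them, the largest differences were in muscle, lipoprotein, keratin and leukocyte genes that were lower in replicate 2 and in small RNA, SMAD7 and erythroid rows that were higher in it. smyhc1, a slow muscle myosin, had 122 and 2.44 CPM in the mutants, against 15.6 and 49.4 CPM in the wildtype and 32.2 and 286 CPM in the sibling libraries. apobb.1, an apolipoprotein of yolk and liver, had 52.8 and 1.39 CPM in the mutants, against 2.82 and 3.32 CPM in the wildtype and 4.36 and 75.8 CPM in the sibling libraries. SLC4A1, the anion exchanger of red cells, had 111 and 367 CPM in the mutants, against 64.4 and 77.3 CPM in the wildtype and 165 and 170 CPM in the sibling libraries. None of the 3 was called, and their values are descriptions, since they were picked for this difference.

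The sibling and wildtype libraries were not distinguished at the threshold. In sibling minus wildtype, 0 of 18020 genes passed by edgeR, 688 (3.82%) had an unadjusted p under 0.05, and DESeq2 called 2 and limma 0. Against the wildtype libraries alone the mutants had 2177 calls (12.1%), 1106 higher (6.14%) and 1071 lower (5.94%), and against the sibling libraries alone 1347 (7.48%), 699 higher (3.88%) and 648 lower (3.6%). These comparisons share the mutant libraries. SF3B1 changed by -0.84 ± 0.18 against wildtype and by -0.71 ± 0.18 against sibling, and was -0.13 ± 0.17 in sibling minus wildtype (adjusted p = 0.994).

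The same genotypes were compared in the CA-Stat3 libraries, which are different libraries from those above but enter the same estimate of the spread. With CA-Stat3, 3868 genes (21.5%) were called between 3 mutant and 6 non-mutant libraries. Of the 2840 genes called with WT-Stat3, 1786 (62.9%) were called in the same direction with CA-Stat3, which is 46.2% of the CA-Stat3 calls, and 2 in the opposite direction. Of the 571 stable genes, 542 (94.9%) were called in the same direction. SNRNP200 had 990 to 1420 CPM in the mutants, against 212 to 290 CPM in the non-mutants with CA-Stat3 (2.36 ± 0.13). snapc4 had 195 to 226 CPM in the mutants, against 15 to 27 CPM in the non-mutants (3.37 ± 0.14). SOCS3 had 77.1 to 130 CPM in the mutants, against 163 to 276 CPM in the non-mutants (-1.19 ± 0.19). The snRNA rows were higher with CA-Stat3 as well, with 8 of 15 called, but their median there was 0.99, against 2.1 with WT-Stat3. The limit that the filter sets on these rows, given above, applies to both. LNX1 had 22.1 to 30.3 CPM in the mutants, against 1.84 to 4.42 CPM in the non-mutants (3.23 ± 0.37).

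A direct test of the difference between constructs called 0 of 18020 genes by edgeR. Of all genes 1242 (6.89%) had an unadjusted p under 0.05, and the smallest adjusted p was 0.222. DESeq2 called 1 and limma 0. Without mutant replicate 1, 212 genes were called, 43 with a more positive and 169 with a more negative change with WT-Stat3, and 19 of the 169 were ribosomal protein genes. Without mutant replicate 2 the count was 0. A miss of the threshold does not show that the mutant change is alike with both constructs.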

How the data were processed

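Per the labels' protocols, poly(A) RNA of kdrl-positive cells was read at 28 hours post fertilization. Titles gave the group and replicate number of each library, and the table had 0 columns without a sample. The authors deposited raw whole-number counts for each Ensembl gene, without normalization. The submitters' processing notes name STAR 2.4.2a, Trim Galore, Picard, featureCounts and DESeq2 with the build GRCz10, in no stated order or role. No source states how strand, duplicates or multi-mapping reads were handled, which leaves near-identical copies, overlapping genes and antisense pairs uncertain. A symbol was found for 26269 of 32105 identifiers. Neither coordinates nor sequences were used.

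The counts entered edgeR 4.0.16 (R 4.3.3). A filter by group (filterByExpr, minimum count 10, minimum total 15) retained 18020 of the 27820 genes that had a count. After TMM scaling, all 15 libraries were fitted in a quasi-likelihood model with 6 group coefficients and 9 residual degrees of freedom, and the non-mutant value is the mean of the wildtype and sibling coefficients. Adjustment was by Benjamini-Hochberg over every tested gene, at a threshold of 0.05. A standard error is the size of the log2 fold change divided by the root of F. A prior count of 2 was used for log2 CPM. The test was also run on simulated data in which all libraries had the same spread. That simulation held no deviating library, so it does not cover the effect of mutant replicate 2.

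The members, the 36 gene lists and the tests were chosen with earlier results of these data known. Of the 2060 list entries 1457 matched a symbol, 462 matched once a paralog letter was dropped and 141 had no match. The named genes follow a rule: SF3B1, STAT3 and kdrl; the 12 largest changes each way among stable genes that do not overlap, average at least 1 log2 CPM and have at least 10 counts in the lower group; at most 5 genes at 0 in a group; at most 4 called members of each list by p; the 5 largest differences each way between the mutants, with at least 50 CPM in one of them; and well-known members. Rows of small RNAs were grouped after their values were seen. Alternatives were DESeq2 1.42.0, limma-voom 3.58.1 with quality weights per sample, RLE factors, an unfiltered and a stricter set (1 CPM in 5 libraries, total of 50), the 6 libraries fitted alone, a replicate block, thinning to 3625121 counts, removal of the 3 most abundant rows, and removal of each library. Where 1 mutant library remains, it is assumed to vary like the other groups. Floors of 3 counts cover counting error only. Values of some genes are not reported here.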

Additional observations from a re-analysis of the deposited data

Results flagged for a closer look

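In 16 of the 187 named genes, 1 of the 4 non-mutant libraries lay far from the other 3, by Dixon's test at 95%. Chance flags about 1 in 20 groups. In wildtype replicate 2 the outlying level was high for LNX1 (4.23 CPM), npsn (514 CPM), gja13.2 (63.1 CPM), ABCB9 (109 CPM), shtn2 (11.5 CPM), MAML3 (87.3 CPM), ptprc (103 CPM) and MYH11 (296 CPM). In sibling replicate 2 it was high for smyhc1 (286 CPM), apobb.1 (75.8 CPM), PRPF3 (57.6 CPM) and ADAM17 (87.8 CPM). In sibling replicate 1 it was high for STAT3 (468 CPM), HSPA8 (13 CPM) and cldna (0.472 CPM) and low for COL1A1 (227 CPM). Of the genes in wildtype replicate 2, npsn and ptprc are expressed by white blood cells, and the summed neutrophil and macrophage markers were highest in that library among the 6, at 2690 and 1190 CPM. The part of those cells in the values was not tested.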

How the results depend on the processing

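For mutant minus non-mutant the 2840 calls became 1170 with limma, 1835 with the own libraries as 2 groups and 1551 as 3 groups. Leaving out 1 library gave 811 to 3103 calls, the lowest without mutant replicate 2. The other settings gave 2642 to 3280. Higher genes were 53.4% of calls in the main fit, 42.6% without the filter and 70.9% with limma. The construct difference, at 0 calls, became 1 with DESeq2 and 0 to 212 with a library left out. Sibling minus wildtype, at 0, became 2 with DESeq2 and 1 with the replicate block, and stayed at 0 with a library left out. Same-numbered deviations from the group means correlated at 0.09 (wildtype with sibling), -0.03 (mutant with wildtype) and -0.15 (mutant with sibling). With 2 libraries in a group the deviations mirror each other, so these values cannot tell whether replicate numbers pair the libraries. With the replicate block the calls were 3105 for mutant minus non-mutant and 0 for the construct difference. Of 159 called named genes, 73 lost the call under at least 1 setting, 61 of them without mutant replicate 2 and 46 with limma, and none of their called values changed sign. Low counts in the mutants limit the genes under about 3 CPM. With 2 mutant libraries, results that need replicate 2 rest on 1 library.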
